A study of Mus musculus with 12 samples.

Results

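The 9 genes described here are Hapln1, the stellate cell genes Lrat, Reln and Des, the small proteoglycan genes Dcn and Lum, and the fibrillar collagen genes Col1a1, Col1a2 and Col3a1, out of 22456 genes measured in mouse liver. The group was chosen from earlier results of these same libraries: Hapln1 was included for its higher level after refeeding in wild-type liver, and the other 8 genes as known genes of stellate cells and their matrix. The levels and differences of the 9 genes are therefore given as a description without tests, and tests are given for other genes of the same pathways. The lists of these other genes were also drawn up with earlier results of these libraries known. Their tests are thus not independent of the choice of lists. All 9 passed the minimum mean of 0.5 RPKM (reads per kilobase, corrected for library depth) that 11507 genes passed.

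The study asked how lipin 1, an enzyme of glycerolipid synthesis that also acts in the nucleus, supports the adaptation of liver to fasting. Whole liver was taken from male BALB/cByJ mice, with 3 Lpin1+/+ (wild type) and 3 Lpin1-/- mice in the fasted state and 3 of each in the refed state, and 1 library was made per mouse. The Lpin1-/- mice (FLD in the labels) carry the fatty liver dystrophy mutation in every cell and were compared with their wild-type littermates. All mice were fasted for 16 hours while housed singly, and the refed mice then had chow for 5 hours, so the refed mice were also sampled at a later hour, and food and clock time cannot be told apart. The mice were aged 2 to 8 months, and the age of each mouse is not given in the sources used here. In whole liver, fewer cells of a type and less RNA per cell cannot be told apart.

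Hepatic stellate cells lie between the hepatocytes and the sinusoidal endothelium, where they store retinyl esters in lipid droplets. After injury they can turn into myofibroblasts that secrete fibrillar collagen and contractile proteins. Lrat encodes the enzyme that esterifies retinol, Reln the secreted glycoprotein reelin, and Des the intermediate filament desmin. Dcn and Lum encode decorin and lumican, proteoglycans that bind collagen fibrils, and Hapln1 encodes a link protein that joins hyaluronan to large proteoglycans. Col1a1 and Col1a2 encode the chains of type I collagen, and Col3a1 encodes type III collagen.

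The library depth was estimated at 94300000 to 126000000 reads. Lpin1 was between 0.726 and 22.0 RPKM in the 6 Lpin1+/+ livers and between 0.00573 and 0.0597 RPKM in the 6 Lpin1-/- livers, so every library fitted its genotype label. As a check of the tissue, the summed level of 7 hepatocyte markers was 32457 to 76104 RPKM, and Lrat, Reln, Des and Dcn were above 0 in all 12 libraries. The libraries of 2 mice stood apart from the others of their groups, namely refed Lpin1+/+ replicate 2 and fasted Lpin1-/- replicate 1. The summed level of 10 Kupffer cell markers was 930.3 and 999.7 RPKM in these libraries and 109 to 508 RPKM in the other 10, and all 10 markers were above 0 in every library. The summed level of 7 bile duct markers was 103 and 452 RPKM against 19.2 to 57.0 in the others, where the defining marker Sctr was at 0 in 4 libraries. Spp1 made up 96.1 and 430 RPKM of these 2 sums, and it is also on the list of myofibroblast genes used below. Krt19 was at 1.55 RPKM in refed Lpin1+/+ replicate 2 and at up to 1.48 RPKM in the others of that group. The summed level of 12 portal fibroblast markers was 38.6 and 33.5 RPKM against 8.39 to 29.7, with all 12 above 0 in every library. Of these 12 markers, 11 and 6 were highest of their group in the 2 libraries. The counts were 9 and 9 of 10 for Kupffer cells, 7 and 7 of 7 for bile duct cells and 5 and 1 of 5 for mesothelium. They were 4 and 0 of 9 for sinusoidal endothelium, 1 and 4 of 7 for smooth muscle, 0 and 1 of 7 for hepatocytes and 3 and 8 of 8 for blood. In each of the 2 libraries, 6 of the 9 genes had their highest value of the group, as did 35.9% and 30.4% of all genes tested. The collagens, Lum and Dcn were highest there in both, with Des in the refed Lpin1+/+ library and Lrat in the fasted Lpin1-/- library. Results are given below with and without these 2 libraries. The part of other cell types in the results was not tested.

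**Figure D1:**
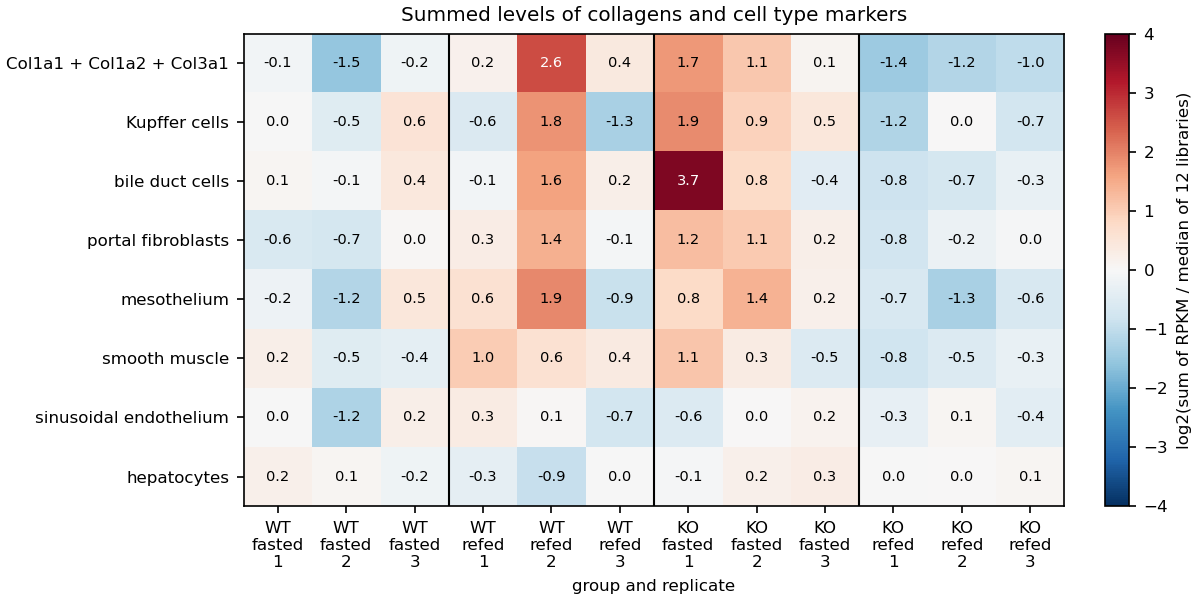
Summed RPKM of the 3 collagen genes and of 7 lists of cell type markers in each of the 12 libraries, as log2 of the ratio to the median of the 12 libraries. Refed Lpin1+/+ (WT) replicate 2 and fasted Lpin1-/- (KO) replicate 1 stand out with 2.62 and 1.75 for the collagens, 1.80 and 1.90 for Kupffer cells, and 1.61 and 3.74 for bile duct cells. Spp1 made up 96.1 and 430 RPKM of these bile duct sums of 103 and 452 RPKM. Hepatocytes were lowest in refed Lpin1+/+ replicate 2, at -0.93, and lay between -0.35 and 0.30 in the other libraries.

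Dcn had the highest mean level of the 9 genes, 159 RPKM over the 12 libraries. Lum followed at 10.9 RPKM, Col3a1 at 4.78, Col1a2 at 3.10, Des at 3.03, Lrat at 3.02, Reln at 2.04, Col1a1 at 1.74 and Hapln1 at 1.32 RPKM. RPKM here is per kilobase of coding sequence. Whether reads outside the coding sequence were counted is not given in the sources used here, and exons are longer than coding sequence by unequal amounts (5838 against 1062 bases for Dcn, 6563 against 4359 for Col1a1), so this order holds for the deposited values and not for transcript numbers. The ratio of the highest library to the lowest was smallest for Dcn, at 4.42, and largest for Hapln1, at 81.1.

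The start sites of the collagen genes and Lrat are shown because their levels lay apart between feeding states of Lpin1-/- liver in opposite directions. RefSeq start windows on GRCm38.p6, 250 bases before to 50 after the RefSeq start, were at hand for 6 of the 9 genes (Hapln1, Lrat, Reln, Des, Col1a2 and Col3a1). They were searched on both strands for the CCAAT box, which reads ATTGG on the opposite strand and was found in 37.4% of 32851 mouse windows. The second motif searched on both strands was the TATA box letters TATAAA, found in 13.6%. The stretches below are 30 bases long, written 5′ to 3′ on the strand of the gene, with the match in capitals.
Col1a2, chr6:4505497-4505526, plus strand, match at position -109 from the start: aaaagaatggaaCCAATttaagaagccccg
Col1a2, chr6:4505606-4505635, plus strand, match at position 0: cctagccctcccATTGGtggagacgttttt
Lrat, chr3:82904038-82904067, minus strand, match at position -81: gaacgcccgtgcCCAATccgtgttctccgg
Col3a1, chr1:45311409-45311438, plus strand, match at position -117: actaatgcatgtTATAAAcatatgcatagg
Col1a2 thus had a CCAAT match before its RefSeq start and another at that start itself, Lrat had 1, and Col3a1 had a TATAAA match. The windows of Col1a2 and Hapln1 lie inside the gene spans given below (GENCODE M21), which begin further upstream at 4504814 and 89539796. Neither motif was found in the windows of Hapln1, Reln and Des. A match of these letters is a description and not a bound site.

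Hapln1 (chromosome 13, 89539796 to 89611652, plus strand, GRCm38) was near the limit of detection in fasted Lpin1+/+ liver and well above it in the other 3 groups. In Lpin1+/+ liver it was at 0.0689, 0.0458 and 0.0447 RPKM in the 3 fasted mice and at 1.20, 1.07 and 0.915 RPKM in the 3 refed mice. In Lpin1-/- liver it was at 1.25, 1.66 and 0.913 RPKM in the fasted mice and at 1.80, 3.63 and 3.25 RPKM in the refed mice. The fasted Lpin1+/+ values lay below all others, the refed Lpin1+/+ and fasted Lpin1-/- values overlapped, and the refed Lpin1-/- values lay above all others. These values come from 8, 5 and 5 reads in fasted Lpin1+/+ liver, with a 95% exact Poisson interval of 3.45 to 15.8 reads for the library with 8 reads and 1.62 to 11.7 for those with 5. The other groups had 105 to 470 reads per library, and these intervals cover counting error only.

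The mean of Hapln1 was 20.03-fold higher after refeeding in Lpin1+/+ liver (1.06 ± 0.145 against 0.0531 ± 0.0137 RPKM, SD, n = 3 each) and 2.27-fold higher in Lpin1-/- liver (2.89 ± 0.964 against 1.28 ± 0.375 RPKM). Between genotypes it was 24.0-fold higher in fasted Lpin1-/- liver and 2.72-fold higher in refed Lpin1-/- liver. On the log2(RPKM + 1) scale of the model the differences of Hapln1 after refeeding were 0.97 ± 0.20 (SE) in Lpin1+/+ and 0.76 ± 0.20 in Lpin1-/- liver, because adding 1 RPKM compresses a gene that is below 1 RPKM. On the log2 scale of recovered whole reads, the same differences of Hapln1 were 4.22 ± 0.66 and 1.15 ± 0.34. Neither library that stood apart was the highest of its group for Hapln1, and without both the folds after refeeding were 19.9 and 2.25.

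**Figure D2:**
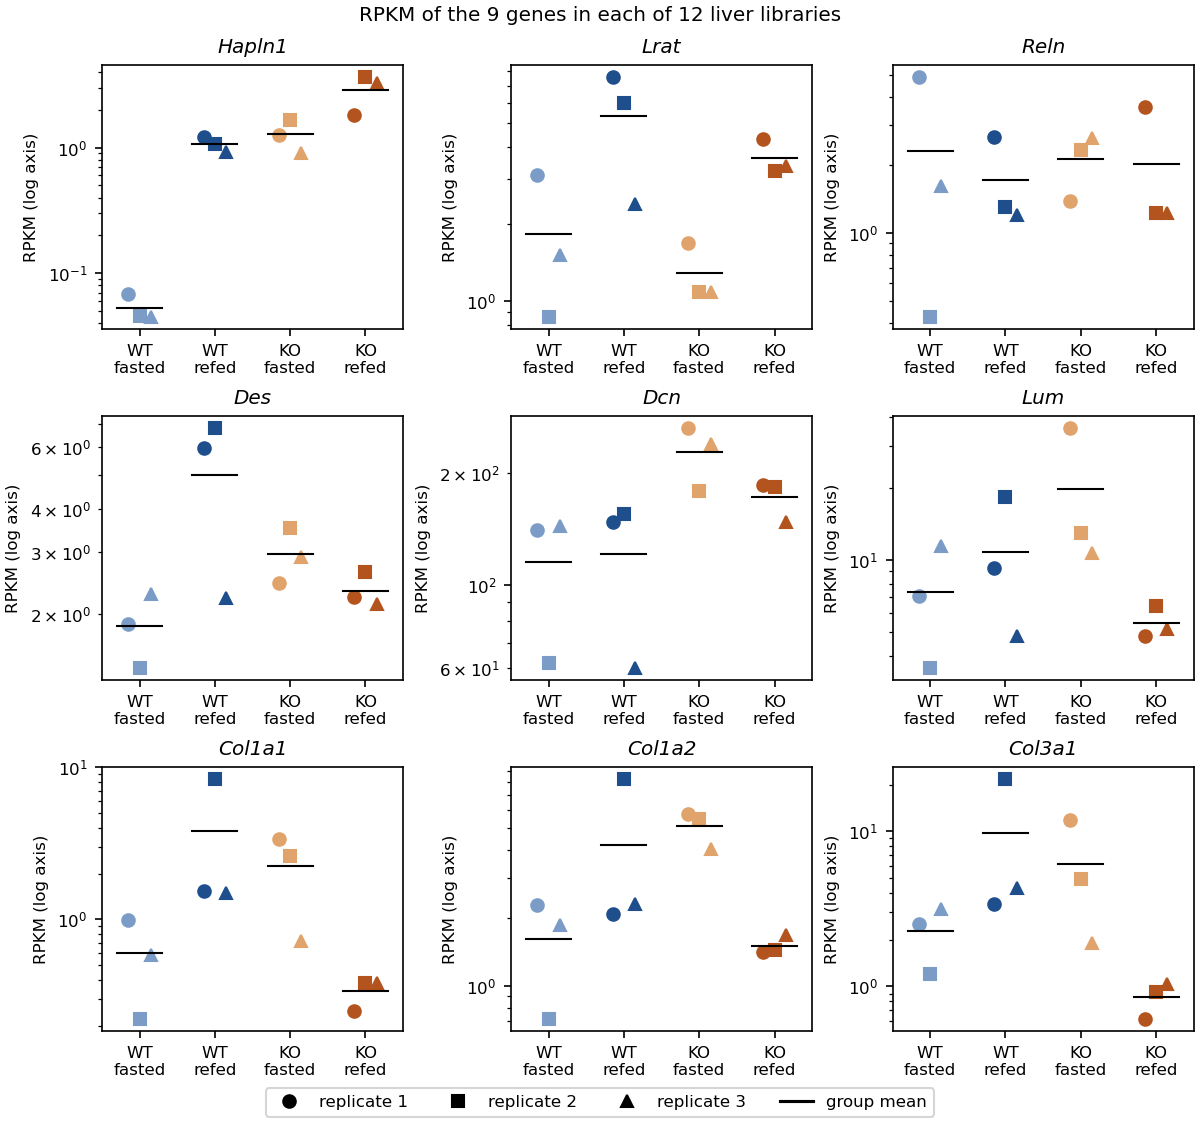
RPKM of the 9 genes on a log axis in each library, with groups on the horizontal axis, symbols for replicates and a line for the group mean. Fasted Lpin1+/+ (WT) values of Hapln1 lie below all 9 other libraries, and all 3 refed Lpin1-/- (KO) values of Col1a1 and Col3a1 lie below those of fasted Lpin1-/- and refed Lpin1+/+ liver.

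Of the stellate cell genes, Lrat (chromosome 3, 82892579 to 82903973, minus strand) was higher in refed than in fasted liver of both genotypes. In Lpin1+/+ liver it was at 3.10, 0.861 and 1.51 RPKM when fasted and at 7.56, 5.99 and 2.39 RPKM when refed. In Lpin1-/- liver it was at 1.69, 1.08 and 1.08 RPKM when fasted and at 4.31, 3.25 and 3.38 RPKM when refed. The feeding states overlapped in Lpin1+/+ mice, through refed replicate 3 and fasted replicate 1, and did not in Lpin1-/- mice. The mean of Lrat was 2.91-fold higher after refeeding in Lpin1+/+ and 2.84-fold higher in Lpin1-/- liver, and the genotypes overlapped in both feeding states.

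Des (chromosome 1, 75360329 to 75368579, plus strand) differed with feeding in Lpin1+/+ liver only in part of the mice. It was at 1.87, 1.40 and 2.28 RPKM in fasted and 5.96, 6.79 and 2.23 RPKM in refed Lpin1+/+ liver. In Lpin1-/- liver it was at 2.46, 3.52 and 2.90 RPKM when fasted and 2.23, 2.63 and 2.13 RPKM when refed. The third refed Lpin1+/+ mouse lay among the fasted ones, and fasted Lpin1-/- values were above all fasted Lpin1+/+ values by a mean of 1.60-fold. The difference of Des after refeeding was 0.98 ± 0.29 on the log2(RPKM + 1) scale in Lpin1+/+ liver and -0.24 ± 0.29 in Lpin1-/- liver.

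Reln (chromosome 5, 21884454 to 22344702, minus strand) overlapped in every comparison. Its values were 4.88, 0.425 and 1.62 RPKM in fasted and 2.66, 1.30 and 1.20 RPKM in refed Lpin1+/+ liver. In the Lpin1-/- mice they were 1.39, 2.34 and 2.63 RPKM when fasted and 3.62, 1.23 and 1.22 RPKM when refed. The differences of Reln in the 4 comparisons ran from -0.11 to 0.13 on the log2(RPKM + 1) scale, each with an SE of 0.46. The 3 stellate cell genes of the group thus did not share 1 pattern over the 12 libraries, with Pearson correlations of log2 levels of 0.33 between Lrat and Reln, 0.57 between Lrat and Des, and 0.22 between Reln and Des.

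Dcn (chromosome 10, 97479609 to 97518143, plus strand) had overlapping levels in the 2 feeding states of both genotypes and higher means in Lpin1-/- liver. In Lpin1+/+ liver it was at 140.5, 61.8 and 144 RPKM when fasted and 148, 155 and 59.8 RPKM when refed. In Lpin1-/- liver it was at 264, 179 and 240.2 RPKM when fasted and 186, 184 and 148 RPKM when refed. All fasted Lpin1-/- values lay above all fasted Lpin1+/+ values, with means of 228 and 116 RPKM, whereas the refed genotypes overlapped. The difference of Dcn between genotypes was 1.05 ± 0.39 in fasted and 0.62 ± 0.39 in refed liver on the log2(RPKM + 1) scale.

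Lum lies 46984 bases from Dcn on the same strand (97565128 to 97572703) but varied more with feeding in Lpin1-/- liver. It was at 7.12, 3.55 and 11.5 RPKM in fasted and 9.26, 18.5 and 4.83 RPKM in refed Lpin1+/+ liver. In Lpin1-/- liver it was at 35.8, 13.0 and 10.7 RPKM when fasted and 4.83, 6.45 and 5.17 RPKM when refed. The feeding states overlapped in Lpin1+/+ mice, and all refed Lpin1-/- values lay below all fasted ones. The mean of Lum was 3.62-fold lower after refeeding in Lpin1-/- liver, and 2.16-fold lower without the fasted replicate that stood apart. The ratio of Dcn to Lum was 7.39 to 22.4 in fasted and 28.5 to 38.5 in refed Lpin1-/- liver.

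The 3 collagen genes had higher means after refeeding in Lpin1+/+ liver and lower means after refeeding in Lpin1-/- liver. Col1a1 (chromosome 11, 94936224 to 94953042, plus strand) was at 0.988, 0.221 and 0.582 RPKM in fasted and 1.53, 8.39 and 1.49 RPKM in refed Lpin1+/+ liver. Without Lpin1, Col1a1 was at 3.39, 2.61 and 0.722 RPKM when fasted and 0.248, 0.384 and 0.382 RPKM when refed. The feeding states did not overlap in either genotype, with the refed values above the fasted ones in Lpin1+/+ and below them in Lpin1-/- mice. The mean of Col1a1 was 6.37-fold higher after refeeding in Lpin1+/+ liver and 6.62-fold lower in Lpin1-/- liver, and without the 2 libraries that stood apart the folds were 2.53 and 4.92.

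Col3a1 (chromosome 1, 45311538 to 45349706, plus strand) was at 2.53, 1.20 and 3.14 RPKM in fasted and 3.38, 21.7 and 4.29 RPKM in refed Lpin1+/+ liver. Without Lpin1, Col3a1 was at 11.7, 4.95 and 1.90 RPKM when fasted and 0.618, 0.920 and 1.04 RPKM when refed. Its feeding states did not overlap in either genotype, although the second refed Lpin1+/+ library was far above the other two. The mean of Col3a1 was 4.27-fold higher after refeeding in Lpin1+/+ and 7.20-fold lower in Lpin1-/- liver, and the folds were 1.68 and 3.98 without the 2 libraries. All 3 refed libraries lay above the fasted ones in Lpin1+/+ liver and below them in Lpin1-/- liver for 85 of the 11507 genes tested (0.739%), Col1a1 and Col3a1 among them.

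Col1a2 (chromosome 6, 4504814 to 4541544, plus strand) was at 2.27, 0.713 and 1.86 RPKM in fasted and 2.08, 8.25 and 2.30 RPKM in refed Lpin1+/+ liver. Without Lpin1, Col1a2 was at 5.76, 5.46 and 4.03 RPKM when fasted and 1.41, 1.44 and 1.67 RPKM when refed. The feeding states overlapped in Lpin1+/+ mice and were apart in Lpin1-/- mice, in which the fasted mean was 3.37-fold the refed mean. The ratio of Col1a1 to Col1a2, which encode the 2 chains of the same collagen, was 0.645 to 1.02 in refed Lpin1+/+ liver, 0.310 to 0.435 in fasted Lpin1+/+, 0.179 to 0.588 in fasted Lpin1-/- and 0.176 to 0.267 in refed Lpin1-/- liver.

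**Figure D3:**
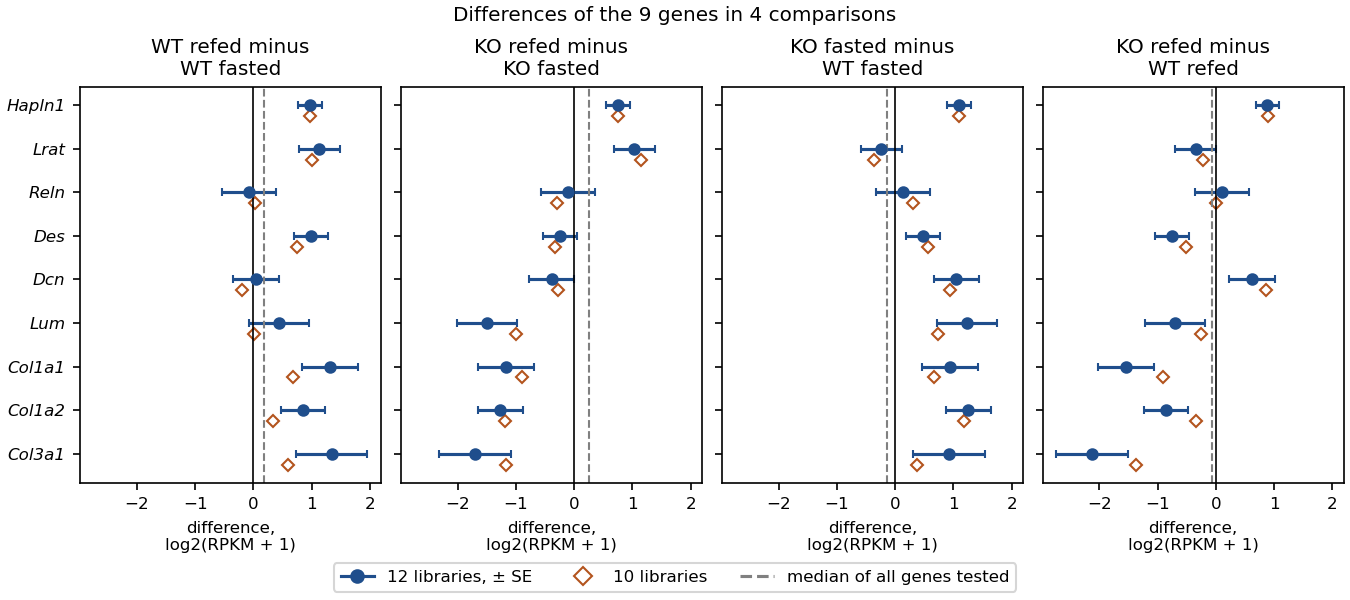
Differences of the 9 genes in the 4 comparisons on the log2(RPKM + 1) scale, with circles and SE bars for all 12 libraries, open diamonds for the 10 libraries left without the 2 that stood apart, and a dashed line at the median of all genes tested. The collagens lie right of 0 for refeeding in Lpin1+/+ (WT) liver (0.85 to 1.34) and left of 0 in Lpin1-/- (KO) liver (-1.70 to -1.17), and Hapln1 lies right of 0 in all 4 panels (0.76 to 1.10).

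The first comparison asked what refeeding changed in Lpin1+/+ liver. Of the 9 genes, 3 had all refed values above all fasted values (Hapln1, Col1a1 and Col3a1), a pattern found in 14.6% of genes tested, and 0 had all refed values below, a pattern found in 3.46%. The summed level of 7 smooth muscle markers also lay apart, at 8.23 to 13.6 RPKM in fasted and 14.8 to 23.3 RPKM in refed liver, with the defining marker Cnn1 at 0 in 1 library, and the part of these cells was not tested. The median difference of the 9 genes was 0.97 on the log2(RPKM + 1) scale beside 0.19 over all genes tested, and 0.60 without the 2 libraries that stood apart. Hapln1 was included for its rise in this comparison, and its own difference of 0.97 is that median with all libraries. The count and this median thus draw on a value used to choose the group. The collagens had the differences that depended most on the second refed library: Col3a1 was at 1.34 ± 0.61 with it and 0.60 without both libraries, and Col1a2 at 0.85 ± 0.38 and 0.34. Lum was at 0.45 ± 0.51 and then 0.00, and Dcn was at 0.04 ± 0.39 and then -0.19. When each library was rescaled by its median ratio to a common reference, the median of all genes tested moved to 0.02 in this comparison, and to -0.03, 0.01 and -0.02 in the next 3. Of the 9 genes, Dcn alone changed sign under rescaling, to -0.18 in this comparison.

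For the surrounding pathways, 230 other genes from 9 lists were read from the same fit, of which 145 passed the minimum level. In Lpin1+/+ liver, 2 of the 145 rose after refeeding and 0 fell at an adjusted p under 0.05 (limma, Benjamini-Hochberg over all genes tested), beside 1.52% and 0.2% of all genes tested. At an unadjusted p under 0.05, 27 of the 145 passed, beside 1594 of all 11507 genes. Cyp26a1, the retinoic acid hydroxylase, was at 7.97, 3.82 and 2.29 RPKM in fasted and 62.0, 38.7 and 25.4 RPKM in refed liver, a difference of 2.95 ± 0.38 (limma adjusted p = 0.0103). Tsku, which encodes the secreted leucine-rich protein tsukushi, was at 30.5, 7.45 and 9.88 RPKM in fasted and 77.9, 76.3 and 127 RPKM in refed liver, a difference of 2.69 ± 0.55 (limma adjusted p = 0.0331). In 12 of 20 alternative fits Tsku missed the threshold in this comparison, with an adjusted p of up to 0.145 in limma.

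The other collagens, collagen processing genes and myofibroblast genes had no gene past the threshold in Lpin1+/+ liver after refeeding, and 4, 6 and 6 of their genes had an unadjusted p under 0.05. Their medians were 0.46 for 13 other collagens, 0.47 for 19 processing genes and 0.70 for 19 myofibroblast genes, beside the median of 0.19 for all genes tested. Without the 2 libraries that stood apart these medians were 0.29, 0.22 and 0.18, beside 0.13 for all genes tested, and 1 other collagen and 1 myofibroblast gene passed. The 23 stellate markers other than the 9 genes had a median of 0.24, and the 17 hyaluronan genes a median of 0.01, which became -0.14 when libraries were rescaled.

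The second comparison asked the same in Lpin1-/- liver. Of the 9 genes, 2 had all refed values above all fasted ones (Hapln1 and Lrat), beside 37.5% of genes tested, and 4 had all refed values below (Lum and the 3 collagens), beside 9.26%. Without fasted replicate 1, Des also had all its refed values below. The median difference of the 9 genes was -0.39, beside 0.25 over all genes tested. Col3a1 was at -1.70 ± 0.61, Lum at -1.50 ± 0.51, Col1a2 at -1.27 ± 0.38 and Col1a1 at -1.17 ± 0.48, and Lrat was at 1.03 ± 0.35. Without the 2 libraries the same differences were -1.17 for Col3a1, -0.99 for Lum, -1.19 for Col1a2, -0.90 for Col1a1 and 1.15 for Lrat.

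Of the 145 other pathway genes, 5 rose and 7 fell after refeeding in Lpin1-/- liver at an adjusted p under 0.05 (limma), beside 17.8% and 2.92% of all genes tested. When each library was rescaled, 1 rose and 26 fell, and 11 passed without the 2 libraries that stood apart. The shares of all genes above are those of the fit of all 12 libraries without rescaling. Rescaling moved the median of all genes tested from 0.25 to -0.03, so the rescaled counts cannot be set against these shares. Of the 7 that fell in the first fit, 4 were in the TGF-β and PDGF list, which had 22 genes tested. The other collagens (13 tested), the collagen processing genes (19) and the stellate markers (23) had 1 each. Pcolce, the enhancer of procollagen C-terminal processing, fell by 1.48 on the log2(RPKM + 1) scale (SE 0.39, limma adjusted p = 0.0223), from 11.6, 6.22 and 3.49 RPKM to 1.60, 1.84 and 1.55 RPKM. Col27a1, a fibrillar collagen, fell from 1.97, 5.69 and 2.63 RPKM to 1.17, 0.675 and 0.974 RPKM (limma adjusted p = 0.0352). Refed values of both genes lay below all fasted ones.

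The zinc finger genes Klf4 and Klf6 and the TGF-β pseudoreceptor gene Bambi fell after refeeding in Lpin1-/- liver as well. Klf6 was at 7.97, 7.90 and 19.6 RPKM in fasted and 3.51, 3.04 and 1.38 RPKM in refed liver, a difference of -1.75 ± 0.51 (limma adjusted p = 0.0317). Bambi fell by 1.02 (SE 0.25, limma adjusted p = 0.0157) and Klf4 by 0.90 (SE 0.20, limma adjusted p = 0.00982). Angptl6 was the 1 gene of the stellate marker list that passed, and it fell by 0.98 (SE 0.29, limma adjusted p = 0.033). Tsku rose by 3.71 ± 0.55 (limma adjusted p = 0.00157) and passed in all 20 alternative fits. Hyal2, a hyaluronidase gene, rose by 1.05 ± 0.26 (limma adjusted p = 0.0156), and the signalling adaptor gene Crk by 0.65 ± 0.18 (limma adjusted p = 0.0266). Neither passed when libraries were rescaled (limma adjusted p = 0.0707 for Hyal2 and 0.205 for Crk), and Crk did not pass without the 2 libraries that stood apart.

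Markers of other cells also moved with refeeding in Lpin1-/- liver. Clec4f, the Kupffer cell lectin gene, fell by 1.28 (SE 0.34, limma adjusted p = 0.0235), and the summed level of the 10 Kupffer markers was 367 to 999.7 RPKM in fasted and 117 to 272 RPKM in refed Lpin1-/- liver. The portal fibroblast gene Clec3b fell by 1.40 (SE 0.40, limma adjusted p = 0.0292), and the summed level of the 12 portal fibroblast markers was 16.6 to 33.5 RPKM in fasted and 8.39 to 13.9 RPKM in refed liver. The endothelial receptor gene Gpr182 rose by 1.41 ± 0.32 (limma adjusted p = 0.0114), while the summed level of 9 sinusoidal endothelial markers was 54.5 to 89.2 and 59.6 to 84.1 RPKM. The 5 mesothelial markers summed to 2.95 to 6.71 RPKM in fasted and 1.05 to 1.65 RPKM in refed liver, the 7 bile duct markers to 24.9 to 452 and 19.2 to 27.8 RPKM, and the 8 blood markers to 469.5 to 1946 and 237 to 723 RPKM. The bile duct sum of 452 RPKM held 430 RPKM of Spp1. The part of these cell types in the lower collagen levels was not tested.

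The third comparison set fasted Lpin1-/- against fasted Lpin1+/+ liver. Of the 9 genes, 4 had all Lpin1-/- values above all Lpin1+/+ values (Hapln1, Dcn, Col1a2 and Des), beside 10.7% of genes tested, and 0 had all values below, beside 22.2%. The median difference of the 9 genes was 0.94, beside -0.14 over all genes tested, and 0.67 without the 2 libraries. The low fasted Lpin1+/+ values of Hapln1, which had a part in its choice, are the reference here. The count and this median thus draw on values used to choose the group. Hapln1 was at 1.10 ± 0.20, Dcn at 1.05 ± 0.39 and Col1a2 at 1.26 ± 0.38. Without the 2 libraries these 3 were at 1.10, 0.94 and 1.18, whereas Lum went from 1.24 ± 0.51 to 0.73 and Col3a1 from 0.92 ± 0.61 to 0.38. Lrat, at -0.24 ± 0.35, had the only negative difference among the 9.

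Of the 145 other pathway genes, 15 were higher and 7 lower in fasted Lpin1-/- liver at an adjusted p under 0.05 (limma), beside 5.63% and 13.2% of all genes tested. With each library rescaled by its median ratio, 28 were higher and 4 lower, and without the 2 libraries that stood apart 20 passed, 15 of them among the original 22. The shares of all genes are again those without rescaling, which moved the median of all genes tested from -0.14 to 0.01. The myofibroblast list had the largest median of the 9 lists, 1.03 over 19 genes, of which 4 were higher and 0 lower. Without the 2 libraries its median was 0.45 with 3 genes higher, beside 0.42 for stellate markers and 0.41 for the TGF-β and PDGF list. Sparc, which encodes a collagen-binding matrix protein, was at 16.3, 7.16 and 19.6 RPKM in Lpin1+/+ and 46.9, 43.0 and 47.8 RPKM in Lpin1-/- liver, a difference of 1.72 ± 0.39 (limma adjusted p = 0.0122) that passed in all 20 alternative fits. Postn, which encodes periostin, was at 1.97, 0.391 and 1.57 RPKM in Lpin1+/+ and 6.47, 2.79 and 5.90 RPKM in Lpin1-/- liver (difference 1.40 ± 0.32, limma adjusted p = 0.0122). The contractile gene Tagln was also higher (1.31 ± 0.42, limma adjusted p = 0.0473), but it missed the threshold in 16 of 20 alternative fits, with an adjusted p of up to 0.16 in limma.

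Among genes on the stellate marker list, Steap4 (1.83 ± 0.45, limma adjusted p = 0.017) and Adamtsl2 (1.37 ± 0.42, limma adjusted p = 0.0427) were higher in fasted Lpin1-/- liver. The chemokine gene Cxcl12 was lower, with a difference of -1.08 ± 0.27 (limma adjusted p = 0.019). Steap4 and Cxcl12 averaged 70.2 and 114 RPKM over all libraries, above the 3.02 of Lrat and below the 159 of Dcn. Which cells of whole liver these transcripts came from was not tested. The collagen chaperone gene Serpinh1 was higher by 1.63 ± 0.48 (limma adjusted p = 0.0359) and the procollagen C-proteinase gene Bmp1 lower, at -1.17 ± 0.23 (limma adjusted p = 0.00569). Serpinh1, Adamtsl2 and Cxcl12 did not pass without the 2 libraries that stood apart, with an adjusted p over the alternatives of up to 0.124, 0.107 and 0.0808 in limma. Col15a1 was the 1 of 13 other collagens that passed and was lower, at -0.85 ± 0.26 (limma adjusted p = 0.0419). It passed in 10 of 19 alternative fits, with an adjusted p of up to 0.124 in limma.

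Of 21 retinoid genes, 2 were higher and 3 lower in fasted Lpin1-/- liver, beside the 5.63% higher and 13.2% lower of all genes tested. Cyp26a1 was at 33.2, 24.8 and 21.2 RPKM in fasted Lpin1-/- liver, a difference of 2.37 ± 0.38 from Lpin1+/+ (limma adjusted p = 0.002) that passed in all 20 alternative fits. Dhrs3, a retinaldehyde reductase gene, was at 96.1, 81.5 and 93.6 RPKM in Lpin1+/+ and 31.1, 41.2 and 26.9 RPKM in Lpin1-/- liver, a difference of -1.44 ± 0.19 (limma adjusted p = 0.000896). The retinaldehyde dehydrogenase gene Aldh1a1 was also lower (-1.20 ± 0.33, limma adjusted p = 0.0282), but it did not pass when libraries were rescaled (limma adjusted p = 0.112). In the TGF-β and PDGF list 5 genes were higher and 1 lower of 22, among them Klf4 (1.33 ± 0.20, limma adjusted p = 0.00153), Klf6 (1.94 ± 0.51, limma adjusted p = 0.0217) and Klf2 (1.41 ± 0.42, limma adjusted p = 0.0362). Klf2 passed in 9 of 20 alternative fits, with an adjusted p of up to 0.116 in limma.

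Markers of other cells moved with this comparison too. The portal fibroblast genes Dpt (1.30 ± 0.32, limma adjusted p = 0.0161) and Cd34 (1.25 ± 0.37, limma adjusted p = 0.0351) were higher in fasted Lpin1-/- liver, and the 12 portal fibroblast markers summed to 16.6 to 33.5 RPKM against 8.69 to 14.6 in Lpin1+/+ liver. Cd34 passed in 10 of 19 alternative fits, with an adjusted p of up to 0.123 in limma. Lyve1, the hyaluronan receptor gene of sinusoidal endothelium, was also higher (1.77 ± 0.46, limma adjusted p = 0.0208), while the 9 endothelial markers summed to 54.5 to 89.2 against 33.8 to 93.5 RPKM. The 10 Kupffer markers summed to 367 to 999.7 against 192 to 395 RPKM. The part of these cell types was not tested.

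**Figure D4:**
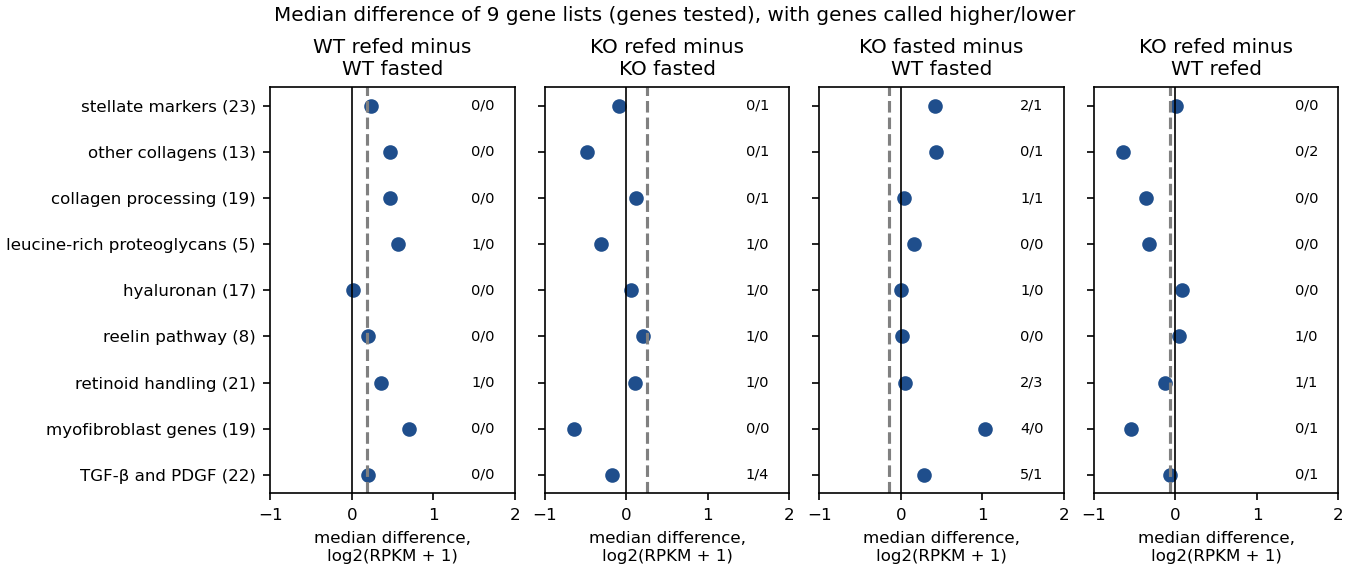
Median difference of the tested genes of 9 pathway lists, without the 9 genes described here, in the 4 comparisons on the log2(RPKM + 1) scale, with the number of genes tested in parentheses, genes passing the threshold as higher/lower at the right, and a dashed line at the median of all genes tested. Myofibroblast genes had a median of 1.03 in fasted Lpin1-/- (KO) against fasted Lpin1+/+ (WT) liver, which was 0.45 without the 2 libraries that stood apart, and a median of -0.65 for refeeding in Lpin1-/- liver.

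The fourth comparison set refed Lpin1-/- against refed Lpin1+/+ liver. Of the 9 genes, 1 had all Lpin1-/- values above all Lpin1+/+ values (Hapln1), beside 14.8% of genes tested, and 3 had all values below (the collagens), beside 19.1%. The 7 smooth muscle markers summed to 14.8 to 23.3 RPKM in Lpin1+/+ and 6.60 to 9.49 RPKM in Lpin1-/- liver, the 12 portal fibroblast markers to 13.6 to 38.6 and 8.39 to 13.9 RPKM, and their part in the result was not tested. The median difference of the 9 genes was -0.71, beside -0.07 over all genes tested, and -0.26 without the 2 libraries. The refed Lpin1+/+ values of Hapln1, which had a part in its choice, enter these counts and this median. Col1a1 was 11.2-fold and Col3a1 11.4-fold lower in Lpin1-/- liver, and both were 4.46-fold lower without the second refed Lpin1+/+ library. Col1a2 was 2.80-fold lower with that library and 1.45-fold lower without it. Dcn was at 0.62 ± 0.39 on the log2(RPKM + 1) scale and Lum at -0.71 ± 0.51, both with overlap.

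Of the 145 other pathway genes, 2 were higher and 5 lower in refed Lpin1-/- liver at an adjusted p under 0.05 (limma), beside 2.6% and 4.07% of all genes tested. With each library rescaled 6 were higher and 3 lower, and 10 passed without the 2 libraries that stood apart, 4 of them among the original 7. The shares of all genes are those without rescaling, which moved the median of all genes tested from -0.07 to -0.02. Col5a3 was at 2.27, 3.82 and 1.61 RPKM in Lpin1+/+ and 0.845, 0.483 and 0.522 RPKM in Lpin1-/- liver, a difference of -1.10 ± 0.29 (limma adjusted p = 0.0436). Col6a2 was at 1.55, 2.59 and 1.10 against 0.593, 0.428 and 0.340 RPKM, a difference of -0.88 ± 0.23 (limma adjusted p = 0.045). Both collagens missed the threshold without the 2 libraries, and over the alternative fits their adjusted p reached 0.132 and 0.145 in limma. The matricellular gene Cyr61 was lower by 1.74 on that scale (difference -1.74 ± 0.34, limma adjusted p = 0.0141), as were Dhrs3 (-0.84 ± 0.19, limma adjusted p = 0.0284) and the myosin light chain gene Myl9 (-0.84 ± 0.23, limma adjusted p = 0.0483). Dhrs3 passed in 11 of 20 alternative fits, and not when libraries were rescaled or without the 2 that stood apart, and Myl9 passed in 4 of 19. Crk was higher by 0.87 ± 0.18 (limma adjusted p = 0.0186) and the acyltransferase gene Dgat1 by 0.68 ± 0.15 (limma adjusted p = 0.0208).

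Whether refeeding acted differently in the 2 genotypes was tested for the other pathway genes as an interaction. Of the 145 genes, 0 had a higher and 2 a lower response in Lpin1-/- liver at an adjusted p under 0.05 (limma), beside 0.791% and 0.487% of all genes tested, and 44 passed an unadjusted p of 0.05, beside 2082 of all 11507 genes. Col27a1 was at 1.55, 0.835 and 0.964 RPKM in fasted and 3.81, 1.88 and 5.12 RPKM in refed Lpin1+/+ liver, opposite to its fall in Lpin1-/- liver. Its interaction was -2.18 ± 0.47 (limma adjusted p = 0.0486), and it passed in 6 of 18 alternative fits, with an adjusted p of up to 0.144 in limma. Tgfb3, a TGF-β ligand gene, had an interaction of -1.35 ± 0.29 (limma adjusted p = 0.0491), and it passed in 2 of 18 alternative fits. Cyp26a1 had an interaction of -2.41 ± 0.53 that missed the threshold (limma adjusted p = 0.0555). Among the 9 genes the interaction was negative for all 9, with a median of -1.23. Over all genes tested it was positive for 6441 of 11507, with a median of 0.09. Hapln1 was included for its rise in Lpin1+/+ liver, which enters the interaction with a minus sign. The count of 9 and the median of -1.23 thus draw on a value used to choose the group. On the log2(RPKM + 1) scale the interaction was smaller than its SE for Reln (-0.03 ± 0.65), Lrat (-0.11 ± 0.50), Hapln1 (-0.21 ± 0.29) and Dcn (-0.43 ± 0.56). For Lrat it turned to 0.14 without the 2 libraries. With single libraries left out it reached 0.46 for Reln, 0.16 for Lrat and 0.007 for Hapln1. The scale compresses Hapln1, which was far below 1 RPKM in fasted Lpin1+/+ liver. On the log2 scale of recovered whole reads its interaction was -3.07 ± 0.74, so the small value above does not show a like response in both genotypes.

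Hapln1 and the collagens did not vary together over the 12 libraries. The Pearson correlations of log2(RPKM + 0.1) were 0.14 between Hapln1 and Col1a1 and -0.06 between Hapln1 and Col3a1, against 0.90 for Col1a1 with Col1a2 and 0.96 for Col1a1 with Col3a1. The 12 libraries share 4 groups and differences in depth, so these values describe the libraries only. The genes most like Hapln1 by this measure were Senp3 (0.95), Lime1 (0.93), Ankrd9 (0.91), Cyp26a1 (0.90) and Gm14403 (0.90). Those most like the mean of the 3 collagens were Mndal (0.96), Anxa2 (0.96), Efemp2 (0.96), Loxl1 (0.94) and Lacc1 (0.94).

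The use of skipped exons was an independent measure, since it had no part in the choice of the 9 genes. The genotype tables held 8 tested events of the 9 genes in fasted and 6 in refed liver, in Dcn and Reln and, when refed, in Col3a1. Of these, 0 passed an adjusted p of 0.05 in limma, and 1, in Col3a1 in refed liver, had an unadjusted p under 0.05. The log2 difference of this Col3a1 event was -2.61, lower in Lpin1-/- liver. Its inclusion was 100% in every Lpin1-/- library and 97.4% to 100% in Lpin1+/+ libraries. It had 17 to 27 reads in Lpin1-/- and 97 to 676 in Lpin1+/+ libraries. At 100% inclusion, the 0.5 added to each count makes the log ratio follow read number. This p therefore does not show lower inclusion. An exon of Dcn on chromosome 10 (97482445 to 97482547) was included in 13.6%, 15.2% and 13.9% of transcripts in refed Lpin1+/+ liver and 15.4%, 16.3% and 16.4% in refed Lpin1-/- liver, from 500 to 2299 reads per library. The Lpin1-/- values lay above all Lpin1+/+ values by a mean of 16.0% against 14.2%, which did not pass the test (limma adjusted p = 0.907). The other events of Dcn and Col3a1 were included in at least 97.4% of transcripts in every library, and those of Reln in at most 3.51% or, for 1 exon, in at least 94.6%.

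With the other pathway genes added, 113 of 890 events (12.7%) passed in fasted and 16 of 886 (1.81%) in refed liver by genotype, beside 10.8% and 1.03% of all events tested. Most of these were small, since 14 of the 113 and 1 of the 16 differed by at least 10 percentage points, and many share an exon. In the retinaldehyde reductase gene Dhrs3, an exon on chromosome 4 (144893582 to 144893709) was included in 92.9%, 92.1% and 96.9% of transcripts in fasted Lpin1+/+ and 56.5%, 60.3% and 72.0% in fasted Lpin1-/- liver (limma adjusted p = 0.0166). In Hyal2, an exon on chromosome 9 (107568983 to 107569233) was included in 74.8%, 71.7% and 76.5% against 33.8%, 39.2% and 29.9% (limma adjusted p = 0.0413). These 2 events were picked after their values were seen.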

How the data were processed

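RNA from whole liver of 12 mice, 3 per group, was sequenced by the authors as stranded paired-end libraries. Reads were aligned with HISAT2 2.0.5 to GRCm38 and counted per gene with HTSeq 0.6.0, and the authors deposited RPKM for 22456 genes. They ran DESeq on counts, which were not used here, so limma (3.58.1, R 4.3.3) was fitted to log2(RPKM + 1) for the genes averaging 0.5 RPKM or more, with 4 groups in 1 fit. Adjustment of p-values followed Benjamini and Hochberg, with a threshold of 0.05. Fold changes on this scale understate those of low genes.

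For 99.2% of genes, RPKM ratios between libraries gave whole reads (22287 genes, tolerance 0.001), and coding lengths of GENCODE M21 gave the same depth within 1% for 84.1% of 12381 genes, so RPKM was taken as per coding length. Gene positions are those of GENCODE M21. Depth was similar between libraries (highest over lowest 1.34), and precision rests on the spread between mice.

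For exons, inclusion and skipping counts that the authors deposited from rMATS entered limma as the log2 of inclusion over skipping, each divided by its length, with 0.5 added to each and at least 10 in every library. The authors' p-values and fold changes were not used. In these tables the libraries of a group have no replicate numbers.

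The 9 genes and all gene lists were chosen with earlier results of these data known. Text genes were the 9 genes, Lpin1, up to 3 genes per list and comparison with the largest difference past the threshold, and the 5 genes most like Hapln1 and the collagens. Replicate numbers were not used to pair the mice in the main fit. Same-numbered libraries deviated together with correlations of -0.47 to 0.70, a range too wide to decide whether the numbers carry a shared effect. The alternatives were a pseudocount of 0.1, no minimum, a minimum of 5 RPKM, rescaling, a replicate block, fewer groups and each library left out. Leaving out 2 libraries and voom on whole reads were chosen after seeing the data. Both tests were run on simulated data. Tables were made with pandas 2.3.3 and numpy 2.4.6 in Python 3.11.15, and plots with matplotlib 3.10.9.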

Additional observations from a re-analysis of the deposited data

Results flagged for a closer look

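The refeeding response of Col27a1 in Lpin1-/- liver minus that in Lpin1+/+ liver was -2.18 on the log2(RPKM + 1) scale and that of Tgfb3 was -1.35, both past the threshold of the interaction term in limma. Col27a1 passed in 6 and Tgfb3 in 2 of 18 alternative fits. Col1a1, at -2.48, and Col3a1, at -3.05, were noted because all refed Lpin1+/+ libraries lay above and all refed Lpin1-/- libraries below the fasted ones of their genotype. The difference between genotypes was not tested for Col1a1 and Col3a1, since they were chosen with these values known. Without the 2 libraries that stood apart in markers of other cells, the values were -1.58 for Col1a1 and -1.76 for Col3a1.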

How the results depend on the processing

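Of the 145 other pathway genes, 2 passed for refeeding in Lpin1+/+ liver, 12 for refeeding in Lpin1-/- liver, 22 for genotype in fasted liver, 7 for genotype in refed liver and 2 for the interaction. A pseudocount of 0.1 gave 1 for the interaction and no minimum level gave 0. A minimum mean of 5 RPKM, which leaves fewer genes, gave 7 for refeeding in Lpin1-/- liver, 13 for fasted and 4 for refed genotype, and medians of the 9 genes of 0.25 for refeeding in Lpin1+/+ liver and -0.043 for refed genotype. Rescaling gave 1, 27 and 8 for the 2 refeeding comparisons and the interaction. Fitting the compared groups alone gave 0, 31 and 11 for the 2 refeeding comparisons and fasted genotype. Leaving out both libraries that stood apart gave 1 for the interaction. The interaction median of the 9 genes was -1.82 with a pseudocount of 0.1 and -2.15 with voom, where low genes are compressed less. Adding 1 to exon counts gave 40 events in refed liver in place of 16. Apart from these constructions, the cause was not tested.

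The replicate numbers were not used as pairs in the main fit (8 of 18 same-number correlations over 0.1, and 6 of 12 libraries closest to their own number). These values do not decide whether the numbers carry a shared effect. With the replicate number as a block, 1 gene passed for refeeding in Lpin1+/+ liver, 4 for refed genotype and 1 for the interaction.

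With each library left out in turn, the counts ran from 1 to 3, 3 to 19, 8 to 24, 1 to 12 and 0 to 2. The medians of the 9 genes ran from 0.60 to 1.08, -0.55 to -0.28, 0.66 to 1.22, -1.09 to -0.26 and -1.62 to -0.99. Exon events ran from 41 to 149 in fasted liver, and 0 passed in refed liver. For refeeding in Lpin1-/- liver the count was 3 without refed Lpin1-/- replicate 1 or 2, 5 without replicate 3, 6 without fasted Lpin1-/- replicate 1 or 2, and 19 without fasted Lpin1+/+ replicate 1 or 2 or refed Lpin1+/+ replicate 2. For fasted genotype it was 8 without fasted Lpin1+/+ replicate 3, 11 and 12 without fasted Lpin1-/- replicates 3 and 2, and 14 without refed Lpin1-/- replicate 3. For refed genotype it was 1 without any 1 refed Lpin1-/- library, 2 without refed Lpin1+/+ replicate 1, 4 without fasted Lpin1-/- replicate 3 and 12 without fasted Lpin1+/+ replicate 1. For refeeding in Lpin1+/+ liver it was 1 without fasted replicate 2 or 3, refed replicate 1 or 3, or refed Lpin1-/- replicate 2 or 3. With 5 to 8 reads of Hapln1 in fasted Lpin1+/+ liver, depth limits its fold there.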
